A study of Mus musculus with 12 samples.

Results

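Kinesins and cytoplasmic dynein are the motors that haul cargo along microtubules, and this report follows the mRNAs of their subunits into the RNA bound by 3 m6A reader proteins of neurons. The members were the protein-coding genes whose symbols name a kinesin motor (Kif), a kinesin light chain (Klc), a dynein chain (Dync, Dynl) or a dynactin subunit (Dctn1 to Dctn6). The adaptor genes Kifap3 and Kifbp were left out by the same rule. It found 69 genes among the 55573 of the count table, and all 69 had enough reads to be tested. They were 40 kinesin motors, 4 kinesin light chains, 2 dynein heavy chains, 4 intermediate, 3 light intermediate and 10 light chains of dynein, and 6 dynactin subunits.

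RIP-seq, the sequencing of RNA that co-precipitates with a protein, was done on primary hippocampal neurons of wild-type C57BL/6 mice, taken from newborn pups and kept for 14 days in culture. Tissue of whole litters was pooled, so that both sexes were mixed, and the cytostatic agent Ara-C had been added early to limit glia. An antibody against endogenous YTHDF1, YTHDF2 or YTHDF3 recovered RNA from lysate (groups YTHDF1 RIP, YTHDF2 RIP and YTHDF3 RIP), and total RNA of the lysate formed the group Input, each with 3 libraries. The question was which RNAs each reader binds. A pulldown with a control antibody is not analysed here, m6A itself was not measured in these libraries, and all comparisons with Input share the same 3 Input libraries.

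Kinesin heavy chains hydrolyse ATP and mostly walk towards microtubule plus ends, which in axons point away from the cell body. Light chains link kinesin-1 to cargo. Cytoplasmic dynein, whose very large heavy chain carries the motor, walks the other way, with intermediate, light intermediate and light chains as its cargo-binding tail and dynactin as its activating partner. YTHDF proteins bind N6-methyladenosine, which is written mainly at adenosines within the sequence motif DRACH, of which GGACT is a frequent form.

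Windows of 25 bases around a GGACT are shown for 3 motor chains and 1 dynein light chain, since the first 3 were enriched in the YTHDF1 RIP and the light chain was depleted in it. In each transcript the GGACT nearest to the stop codon was taken on the sense strand, and the motif is in capitals. The sequences were read from the GENCODE transcripts of build GRCm38 and are written 5′ to 3′. The Dync1h1 window lies in the coding sequence at chr12:110666606-110666630 on the plus strand, and the other 3 lie in 3′ UTR exons. Kif5c is at chr2:49771178-49771202 on the plus strand, and on the minus strand Kif1a is at chr1:93018428-93018452 and Dynll2 at chr11:87981359-87981383.
Dync1h1: tcttcaccgtGGACTttgaaattgc
Kif5c: agcatgaaaaGGACTgtagtagtca
Kif1a: aaagccttccGGACTtccagtggcc
Dynll2: ggcgttgctgGGACTgttgcactgg
A match to these letters is a description of the transcript and does not show that the site was methylated or bound.

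Total counts ranged from 6020072 to 38909592 per library, and the YTHDF2 RIP libraries were the shallowest group. Neuronal marker genes were present throughout, with a summed level of 2600 to 4061 normalized CPM (counts scaled to a common library size) in Input and 1784 to 7164 in the RIP libraries. Other cells were present too. The summed CPM of astrocyte markers ran from 249 to 2419 in Input, of the 5 cycling-cell markers from 8.07 to 171 in Input, and of oligodendrocyte-lineage markers from 50.1 to 254 in Input but reached 1206 in YTHDF1 RIP replicate 1. Microglial markers stayed at or below 3.81 CPM, with 1 of 4 listed genes abundant enough to test.

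By the study's methods the lysate of each replicate was split between the 3 RIPs, with 1 Input for all of them, so libraries with the same number should come from the same cells. The libraries labelled YTHDF3 RIP followed the Input of their own number, but those labelled YTHDF1 RIP and YTHDF2 RIP did not. For the summed cycling-cell markers, replicates 1, 2 and 3 held 8.07, 75.9 and 171 CPM in Input and 15.8, 189 and 362 in the YTHDF3 RIP. The same numbers held 134, 327 and 240 CPM in the YTHDF1 RIP and 111, 232 and 162 in the YTHDF2 RIP. These sums were mostly Mki67 and Top2a, and the listed markers did not move together. From Input to the YTHDF1 RIP, mean Mki67 rose from 52.9 to 177 CPM and Top2a from 22.2 to 49.9. Mean Cdk1, Ccnb1 and Aurkb fell there, from 3.34, 4.59 and 2.10 to 2.47, 2.84 and 1.54. In the other RIPs the listed means rose, except Aurkb with YTHDF3 (1.91). Over all genes, the deviations of YTHDF1 and YTHDF2 RIP replicate 2 correlated best with an Input of another number, at 0.467 and 0.56, and the YTHDF1 and YTHDF2 RIPs of the same number correlated with each other at 0.059, 0.544 and 0.348. Whether the numbers of these 2 RIPs mark the same lysates as those of Input is not known, so paired values for YTHDF1 and YTHDF2 may join libraries of different lysates. The main values below therefore treat libraries as unpaired, in a fit of all 4 groups. The term paired fit stands for a fit of the 2 groups compared alone, with the replicate number as a block, and its calls are given beside the main ones where they differ for a named gene or a class. In these bulk libraries, fewer cells of a type and less RNA per cell cannot be told apart.

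A gene counted as enriched or depleted where its log2 fold change over Input was at least 0.32 in size and its edgeR adjusted p, over all 17126 genes tested, was at most 0.05. In the YTHDF1 RIP, 25 of the 69 motor genes were enriched and 16 depleted, where 27.2% and 25.8% of all genes tested were. In the YTHDF2 RIP 13 were enriched and 14 depleted, against 15.7% and 19.0% of all genes. The YTHDF3 RIP had 20 enriched and 15 depleted, against 16.4% and 23.0%. As shares of the members these were 36.2% and 23.2%, 18.8% and 20.3%, and 29.0% and 21.7%, so the enriched shares lay above those of all genes, most for YTHDF1 and YTHDF3, and the depleted shares were close to them. All members are protein-coding, and of the 13508 protein-coding genes tested 29.8%, 17.7% and 19.1% were enriched and 23.15%, 16.8% and 19.4% depleted. Against these the enriched share for YTHDF2 was near the background and that for YTHDF1 less far above it. The median log2 fold change of the members was 0.52 for YTHDF1, 0.33 for YTHDF2 and 0.52 for YTHDF3. That of all genes was 0.02, 0.02 and 0.05, and that of protein-coding genes 0.12, 0.08 and 0.14. Scaling mattered most for YTHDF1. With library size alone as the scale, which moved the median of all genes by -0.40, its members split into 16 enriched and 18 depleted, and with TMM over protein-coding genes, which moved it by -0.25, into 18 and 17. For YTHDF3, library size alone moved the median of all genes by 0.33 and gave 26 and 14 members, and for YTHDF2 TMM over protein-coding genes moved it by -0.11 and gave 12 and 15.

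These counts were different in the paired fit, which changes both the libraries fitted and the model. The YTHDF3 RIP there had 40 enriched and 18 depleted members, against 36.3% and 32.2% of all genes. The YTHDF1 RIP had 13 and 13, against 14.0% and 17.7%, and the YTHDF2 RIP 11 and 12, against 11.7% and 16.4%. As shares of the members these were 58.0% and 26.1%, 18.8% and 18.8%, and 15.9% and 17.4%. The replicate block added to the fit of 4 groups left 25 and 15 for YTHDF1 (26.6% and 25.6% of all genes), 15 and 13 for YTHDF2 (15.4% and 18.2%), and 18 and 14 for YTHDF3 (16.2% and 22.4%). The 2 groups alone, with no block, gave 16 and 15 for YTHDF1 (19.9% and 23.6% of all genes), 14 and 15 for YTHDF2 (18.1% and 21.7%), and 21 and 16 for YTHDF3 (22% and 24.4%). Of the 15 YTHDF1 calls lost in the paired fit, 9 were lost with 2 groups alone and 3 with the block alone, and of the 23 YTHDF3 calls made in it, 3 were made with 2 groups alone and 0 with the block alone.

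The classes of motor subunits differed widely from each other.

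**Figure D1:**
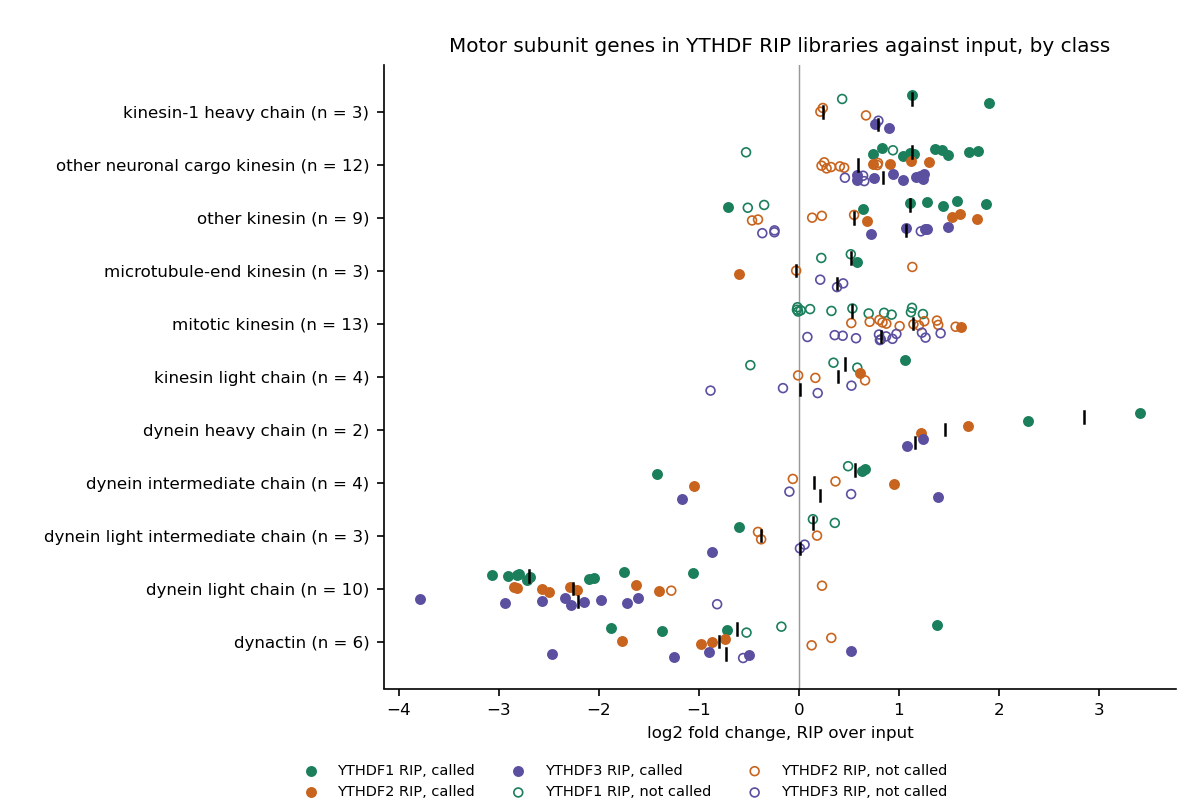
Log2 fold change of every motor gene in each RIP over Input (horizontal axis), grouped by subunit class, with 1 point per gene and RIP. Filled points were called, open points were not, and black ticks are class medians; dynein light chains lie furthest to the left, with medians of -2.70, -2.25 and -2.21, and dynein heavy chains furthest to the right in the YTHDF1 RIP, with a median of 2.86.

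The dynein heavy chains were enriched by all 3 readers. Dync1h1, the heavy chain of cytoplasmic dynein 1 that carries nearly all minus-end transport, stood at 905, 894 and 802 CPM in the Input libraries. It reached 8161, 7834 and 11713 CPM with YTHDF1, 2603, 2167 and 3616 with YTHDF2 and 2239, 2083 and 1830 with YTHDF3. Every RIP library was above every Input library, and every YTHDF1 RIP library was above every other RIP library. The log2 fold change was 3.41 ± 0.28 (SE, n = 3 per group, edgeR adjusted p = 5.98e-06) for YTHDF1, 1.69 ± 0.26 (adjusted p = 0.000789) for YTHDF2 and 1.24 ± 0.26 (adjusted p = 0.00272) for YTHDF3.

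Dync2h1, the heavy chain of the dynein that works inside cilia, was far less abundant and moved the same way. Its Input values were 40.2, 38.4 and 31.1 CPM, and its RIP values 162, 160 and 217 CPM for YTHDF1, 78.8, 75.4 and 102 for YTHDF2, and 83.5, 77.3 and 72.2 for YTHDF3. No RIP library overlapped the Input libraries. Log2 fold changes were 2.30, 1.23 and 1.09, each called. Summed markers of motile ciliated cells were 32.1 to 42.2 CPM in Input and 56.7 to 79.4 CPM over the RIP libraries. They did not move together. Mean Rsph1 fell from 2.61 CPM in Input to 1.78, 0.76 and 1.09 with YTHDF1, YTHDF2 and YTHDF3. The other listed markers rose in each RIP, among them Dnah5 from 6.27 to 22.9 CPM with YTHDF1. The part of such cells in the Dync2h1 result was not tested.

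**Figure D2:**
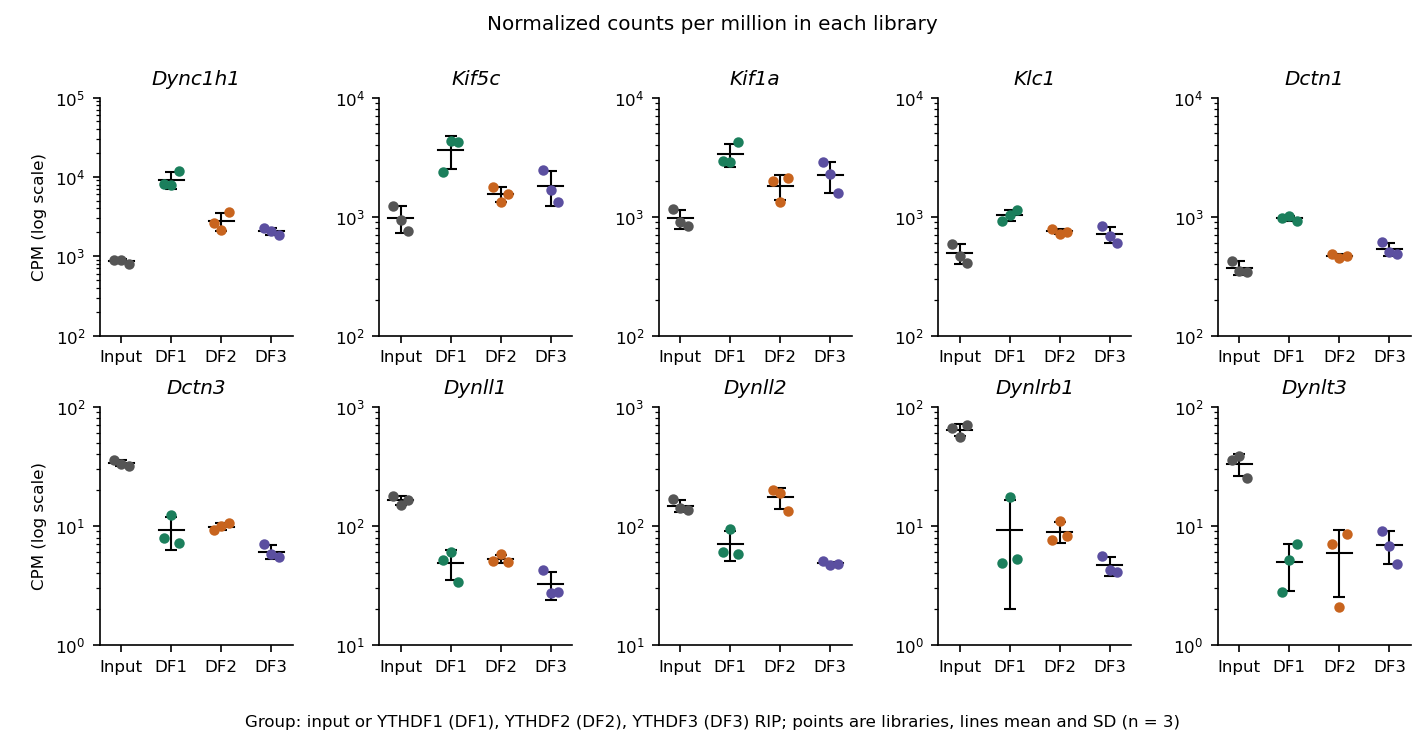
Normalized CPM (log axis, range differing between panels) of 10 motor genes in each library of Input and of the YTHDF1, YTHDF2 and YTHDF3 RIPs (DF1, DF2, DF3), with the mean and SD of 3 libraries. Dync1h1 rises from 802 to 905 CPM in Input to between 7834 and 11713 in the YTHDF1 RIP, while Dynll1 drops from between 149 and 179 to between 33.9 and 60.9; Dynll2 overlaps Input in the YTHDF2 RIP alone.

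Kinesin-1 carries vesicles and organelles down axons with heavy chains Kif5a, Kif5b and Kif5c. Kif5c, a neuron-rich form, had Input values of 1234, 934 and 753 CPM and YTHDF1 RIP values of 2355, 4335 and 4202. The YTHDF2 RIP gave 1782, 1317 and 1556 CPM and the YTHDF3 RIP 2472, 1659 and 1336, all above Input. Its log2 fold change was 1.90 ± 0.32 (edgeR adjusted p = 0.000533) for YTHDF1 and 0.90 ± 0.32 (adjusted p = 0.0392) for YTHDF3, and 0.67 ± 0.31 (adjusted p = 0.118) for YTHDF2 missed the threshold. The YTHDF3 call was lost without Input replicate 2 or 3 or YTHDF3 RIP replicate 1 or 2, with values of 0.62 to 0.99, and with the block added to the fit of 4 groups (edgeR adjusted p = 0.0576).

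Kif5a, the form restricted to neurons, varied more between libraries of a group. Input held 915, 692 and 473 CPM, YTHDF1 libraries 1127, 1241 and 2185, YTHDF2 libraries 786, 479 and 1194, and YTHDF3 libraries 1752, 1130 and 731, so that the YTHDF2 and YTHDF3 groups overlapped Input. Only the YTHDF1 RIP was called, at a log2 fold change of 1.13 (edgeR adjusted p = 0.0414), and that call was lost in the paired fit (1.00, adjusted p = 0.187). It was also lost without Input replicate 2, Input replicate 3 or YTHDF1 RIP replicate 3, at 1.13, 0.81 and 0.77. For YTHDF3 the paired fit made a call, at 0.82. The summed neuronal markers of replicates 1, 2 and 3 were 4061, 3139 and 2600 CPM in Input and 5879, 4280 and 2977 for YTHDF3, in the same order as Kif5a, and their part in its spread was not tested.

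Kif5b, the form found in most tissues, was called in the YTHDF3 RIP alone, at 0.76 ± 0.27 (edgeR adjusted p = 0.0431). Its level rose from 180, 206 and 178 CPM in Input to 307, 352 and 297. In the YTHDF1 RIP the values were 138, 314 and 310 CPM, on both sides of Input. The YTHDF3 call was lost on leaving out any of the 6 libraries compared (0.71 to 0.83) and with the block added to the fit of 4 groups (edgeR adjusted p = 0.0529), and without YTHDF1 RIP replicate 1 the YTHDF1 value was called, at 0.73. Across the kinesin-1 heavy chains, 2 of 3 were enriched by YTHDF1 and 2 of 3 by YTHDF3. For YTHDF2 the count was 0 of 3 by edgeR, with 0 at an unadjusted p under 0.05 and 0 by DESeq2. In the paired fit the counts were 1, 0 and 3. Of all genes, 27.2%, 15.7% and 16.4% were enriched in the main fit and 14.0%, 11.7% and 36.3% in the paired fit.

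The other kinesins that carry cargo in neurons were enriched as a class more often than all genes. Of these 12 genes, 10 were enriched by YTHDF1, 4 by YTHDF2 and 9 by YTHDF3, and none was depleted in any. The enriched shares were 83.3%, 33.3% and 75%, against 27.2%, 15.7% and 16.4% of all genes. The median log2 fold changes of the class were 1.13, 0.60 and 0.84. Its median transcript length was 6262.5 bases, and all protein-coding genes of 6000 bases and over had medians of 1.34, 0.57 and 0.82. In the paired fit the counts were 5, 2 and 12 (41.7%, 16.7% and 100%), against 14.0%, 11.7% and 36.3% of all genes. Together with kinesin-1 the class made 15 genes, of which the paired fit called all 15 for YTHDF3. The enriched kinesin motors of every class numbered 19, 9 and 16 of 40. With the trend with transcript length removed, as described further on, they numbered 6, 7 and 5, against 19.9%, 12.5% and 13.3% of all genes.

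Kif1a, the motor of synaptic vesicle precursors, had 1159, 896 and 837 CPM in Input. The YTHDF1 RIP held 2943, 2872 and 4203 CPM, the YTHDF2 RIP 1999, 1313 and 2115, and the YTHDF3 RIP 2864, 2280 and 1568, with no overlap with Input. Log2 fold changes were 1.79 ± 0.30, 0.91 ± 0.29 and 1.22 ± 0.29, each called, the YTHDF2 call being lost in the paired fit (edgeR adjusted p = 0.0579). Kif1b, a mitochondrial and vesicle motor, followed closely at 1.70, 0.74 and 1.17, and its YTHDF2 call was lost in the same way (adjusted p = 0.0682). Without Input replicate 2 or 3, or YTHDF2 RIP replicate 1 or 3, both YTHDF2 calls were lost as well, with values of 0.78 to 0.86 for Kif1a and 0.64 to 0.73 for Kif1b.

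The heterotrimeric kinesin-2 subunit Kif3b reached 315, 260 and 335 CPM in the YTHDF1 RIP, from 121, 91.1 and 111 in Input, a log2 fold change of 1.49. It was also enriched by YTHDF3 (1.04) but not called for YTHDF2 (0.45, edgeR adjusted p = 0.0594). The kinesin-2 subunits Kif3a and Kif3c moved less, with 0.74 and 1.04 for YTHDF1. Both of these YTHDF1 calls were lost in the paired fit, at adjusted p = 0.185 and 0.133. Without Input replicate 3 the Kif3a call for YTHDF1 was lost (0.53), and its YTHDF3 call of 0.59 was lost without Input replicate 2 or 3 or YTHDF3 RIP replicate 1 (0.47 to 0.60).

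Kif21a and Kif21b, which restrain microtubule growth as well as walking along it, were enriched by YTHDF1 (1.11 and 1.15) and by YTHDF3 (0.75 and 1.247). For YTHDF2 neither was called, at 0.23 and 0.41. Both YTHDF1 calls were lost in the paired fit (edgeR adjusted p = 0.0739 and 0.104). With the trend of values with transcript length removed, as described further on, the YTHDF1 value of Kif21b was -0.26 and not called. The YTHDF3 call of Kif21a was lost without Input replicate 2 or 3 or YTHDF3 RIP replicate 1 or 2 (0.47 to 0.80). Kif17, a motor of dendritic receptor cargo with only 4.39 to 9.06 CPM in Input, passed in no RIP (0.94, 0.79 and 0.64), although it was called for YTHDF1 without YTHDF1 RIP replicate 2 (1.19) and for YTHDF3 in the paired fit (0.70). Kif13a and Kif13b, which move endosomal and signalling cargo, were called in all 3 RIPs, the values being 0.83, 1.12 and 1.255 for Kif13a and 1.36, 1.30 and 0.94 for Kif13b. In the paired fit the YTHDF1 call of Kif13a was lost.

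Light chains of dynein went the opposite way. All 10 were depleted by YTHDF1, 8 by YTHDF2 and 9 by YTHDF3, and none was enriched. Of all genes, 25.8%, 19.0% and 23.0% were depleted. Their median log2 fold changes were -2.70, -2.25 and -2.21. Dynlt1a, Dynlt1b, Dynlt1c and Dynlt1f are near-identical neighbouring copies whose reads the counting assigns to each of them, so they are not separate measurements. Without them, 6, 4 and 5 of the remaining 6 light chains were depleted. The paired fit called 10, 7 and 10 of the 10 and 6, 3 and 6 of the 6, against 17.7%, 16.4% and 32.2% of all genes.

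Dynll1, the hub light chain shared with many other complexes, had 179, 149 and 164 CPM in Input. It fell to 51.5, 60.9 and 33.9 CPM with YTHDF1, 50.8, 58.2 and 50.3 with YTHDF2, and 42.3, 27.4 and 27.6 with YTHDF3. All 9 RIP libraries were below all Input libraries. The log2 fold changes were -1.75 ± 0.24 (edgeR adjusted p = 0.000132), -1.63 ± 0.24 (adjusted p = 0.000652) and -2.34 ± 0.25 (adjusted p = 5.36e-05).

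Its close paralog Dynll2, which encodes a nearly identical protein and is the light chain of myosin V as well, behaved differently in the YTHDF2 RIP. From 168, 141 and 135 CPM in Input it fell to 61.0, 93.8 and 58.0 in the YTHDF1 RIP and to 50.3, 47.2 and 47.7 in the YTHDF3 RIP. In the YTHDF2 RIP it stood at 199, 188 and 135 CPM, which overlapped Input. The log2 fold changes over Input were -1.06, 0.23 (edgeR adjusted p = 0.43) and -1.61.

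Dynlrb1, a roadblock light chain, had the lowest value of any member, with -3.79 in the YTHDF3 RIP. There it held 5.64, 4.26 and 4.10 CPM, against 66.6, 55.8 and 71.1 in Input, and its values for YTHDF1 and YTHDF2 were -2.80 and -2.85. Dynlt3, a Tctex-type light chain, gave -2.72, -2.49 and -2.28. The copies Dynlt1a, Dynlt1b and Dynlt1c were at -2.82, -3.07 and -2.91 for YTHDF1. The rare Dynlt2a2, with 3.0 to 3.5 CPM in Input, was at -2.93 for YTHDF3, and Dynlt2b was depleted by YTHDF1 (-2.10) and YTHDF2 (-1.39). The paired fit did not call Dynlt2b for YTHDF2 and did for YTHDF3 (-0.76).

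The light chains of kinesin-1 did not share the depletion. Klc1, the main neuronal form, was enriched by YTHDF1, at 914, 1031 and 1129 CPM against 592, 470 and 410 in Input, and by YTHDF2, at 790, 720 and 741. Its log2 fold change was 1.06 ± 0.20 (edgeR adjusted p = 0.00103) and 0.61 ± 0.20 (adjusted p = 0.0328). For YTHDF3 it was 0.53 (adjusted p = 0.0539). The paired fit lost the first 2 calls (edgeR adjusted p = 0.109 and 0.0825) and made the third, at 0.59. Leaving out a library also moved these calls: that for YTHDF2 was lost without any of 5 of the 6 libraries, Input replicate 1 being the exception (0.47 to 0.64), and that for YTHDF3 was made without Input replicate 1 (0.68) or YTHDF3 RIP replicate 3 (0.64). Klc2, Klc3 and Klc4 were called in no RIP, and none of the 4 kinesin light chains was depleted.

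By class median, the middle-sized chains of dynein lay between the heavy and light ones. Single chains did not always: Dync2i1 was above both heavy chains in the YTHDF3 RIP. Dync2i2 was below the light chain Dynll2 in the YTHDF1 and YTHDF2 RIPs. The intermediate chains Dync1i1 and Dync1i2 link the heavy chain to dynactin. Dync1i1 was called in no RIP, with values of 0.49, -0.06 and -0.09, and Dync1i2 was enriched by YTHDF1 alone (0.66, edgeR adjusted p = 0.0444, and 0.315 in the paired fit). That call was lost without any Input library or without YTHDF1 RIP replicate 1 or 2 (0.26 to 0.73), and the paired fit called Dync1i2 for YTHDF3 (0.58). The light intermediate chains Dync1li1 and Dync1li2, which bind cargo adaptors, had values between -0.41 and 0.36 and were called in no RIP, except that Dync1li2 was called for YTHDF1 without YTHDF1 RIP replicate 1 (0.57). Among the ciliary dynein-2 chains, Dync2i1 rose in every RIP (0.64, 0.95 and 1.39), Dync2i2 fell in every RIP (-1.41, -1.05 and -1.17), and Dync2li1 fell for YTHDF1 and YTHDF3 (-0.60 and -0.87). The YTHDF1 calls of Dync2i1 and Dync2li1 were lost in the paired fit.

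Dynactin was split by subunit. Dctn1, the large p150 arm that touches both dynein and the microtubule, had 427, 346 and 342 CPM in Input and 972, 1018 and 918 in the YTHDF1 RIP. That was a log2 fold change of 1.38 ± 0.17 (edgeR adjusted p = 7.21e-05). The YTHDF2 RIP gave 482, 449 and 466 CPM (0.33, not called) and the YTHDF3 RIP 610, 505 and 489 (0.52, called). The last call was lost without Input replicate 2 or 3 or YTHDF3 RIP replicate 1 (0.42 to 0.51).

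The small arm subunit Dctn3 went down in all 3 RIPs, from 35.7, 33.2 and 32 CPM in Input to between 5.49 and 12.4 CPM over the 9 RIP libraries. Its values were -1.88, -1.76 and -2.47. Dctn5, a subunit of the pointed-end complex, was depleted in all 3 as well (-1.37, -0.98 and -1.247). Dctn4 was likewise called in all 3 (-0.72, -0.86 and -0.50), with the YTHDF1 call lost in the paired fit and the YTHDF3 call lost without any Input library or without YTHDF3 RIP replicate 2 or 3 (-0.49 to -0.37), and with the block added to the fit of 4 groups. Dctn2, the p50 subunit known as dynamitin, was depleted by YTHDF2 and YTHDF3 (-0.73 and -0.89), the former not without YTHDF2 RIP replicate 1 (-0.63). Dctn6 was called in no RIP (-0.52, 0.13 and -0.56), but it was for YTHDF1 without YTHDF1 RIP replicate 2 (-0.90) and for YTHDF3 in the paired fit (-0.49).

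Of the remaining 9 kinesins outside the cargo, microtubule-end and mitotic classes, 6 were enriched by YTHDF1, 4 by YTHDF2 and 5 by YTHDF3. These were 66.7%, 44.4% and 55.6%, against 27.2%, 15.7% and 16.4% of all genes. The paired fit had 4, 4 and 6 (44.4%, 44.4% and 66.7%), against 14.0%, 11.7% and 36.3% of all genes. Kif26a, a kinesin without motor activity, was enriched throughout (1.59, 1.61 and 1.50), from 1.67 to 2.68 CPM in Input. Kif7, a regulator of hedgehog signalling in cilia, had the highest member value in the YTHDF2 RIP (1.78), a call lost without Input replicate 1 or 2 or any YTHDF2 RIP library (1.39 to 1.90). Kif28, at 0.75 to 1.07 CPM in Input, was at 1.87, 1.53 and 1.28. Kif9 was the only kinesin motor depleted by YTHDF1 (-0.71), and not in the paired fit. Kif2a, a microtubule-depolymerizing kinesin, was enriched by YTHDF1 (0.58) and depleted by YTHDF2 (-0.60), with neither call kept in the paired fit (edgeR adjusted p = 0.324 and 0.0672).

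Mitotic kinesins build and run the spindle of dividing cells. Which cells of these cultures held their mRNAs was not tested. In the main fit, edgeR called 0 of 13 for YTHDF1, 1 for YTHDF2 (Kifc5b, at 1.62, and at 1.43 and not called without YTHDF2 RIP replicate 2) and 0 for YTHDF3. The counts at an unadjusted p under 0.05 were 0, 2 and 0, and those by DESeq2 were 0, 2 and 0. Kifc5b and Kifc1 are near-identical copies and are not separate measurements.

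Their levels varied widely between libraries of the same group. The 13 genes together held 14.0, 45.2 and 98.2 CPM in Input replicates 1, 2 and 3, and 23.2, 90.4 and 178 in the same replicates of the YTHDF3 RIP. The YTHDF1 RIP held 50.1, 113 and 61.5 CPM and the YTHDF2 RIP 81.2, 160 and 91.3. Within each replicate number, the YTHDF3 RIP was above its Input. The paired fit called 11 of 13 as enriched for YTHDF3, 0 for YTHDF1 and 2 for YTHDF2. These were 84.6%, 0% and 15.4%, against 36.3%, 14.0% and 11.7% of all genes. Kif11, the spindle-pole separating motor, showed this at 2.36, 7.91 and 20.2 CPM in Input and 4.94, 22 and 44 in the YTHDF3 RIP, with a paired log2 fold change of 1.34. The summed cycling-cell markers, mostly Mki67 and Top2a, had the same order of libraries within each group. Their part in the result was not tested.

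**Figure D3:**
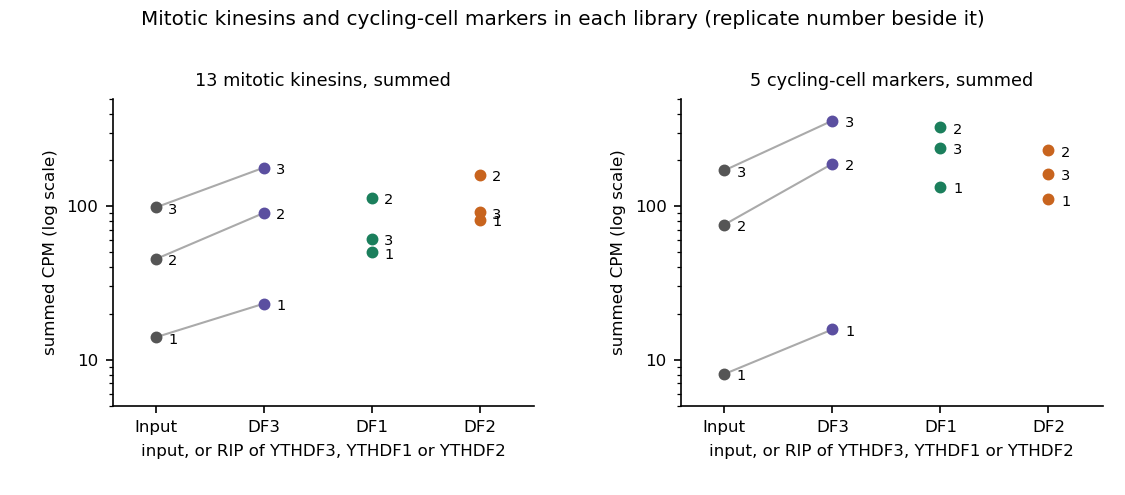
Summed normalized CPM (log axis) of the 13 mitotic kinesins (left) and of 5 cycling-cell markers (right) in each library, with the replicate number beside the point. The marker sum is mostly Mki67 and Top2a. Grey lines join Input and YTHDF3 RIP libraries of the same number; the kinesin sums go from 14.0, 45.2 and 98.2 to 23.2, 90.4 and 178, and the markers from 8.07, 75.9 and 171 to 15.8, 189 and 362.

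Direct comparisons between readers separated few motor genes. At a fold change of at least 2, 7 members were higher and 2 lower in the YTHDF1 RIP than in the YTHDF2 RIP, against 11.4% and 6.10% of all genes. Against the YTHDF3 RIP, 2 were higher and 1 lower in the YTHDF1 RIP, against 10.8% and 3.63%. Between the YTHDF2 and YTHDF3 RIPs, 1 was higher in the former and 0 were lower, against 3.95% and 1.16%. In that last comparison 12 members had an unadjusted p under 0.05, and DESeq2 called 3. Of 69 members these were 10.1% and 2.9%, 2.9% and 1.4%, and 1.4% and 0%. With the trend with length removed, the 9 members that differed between the YTHDF1 and YTHDF2 RIPs became 2, for exonic as for transcript length.

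Dync1h1 was 1.72 ± 0.26 higher on the log2 scale in the YTHDF1 than in the YTHDF2 RIP (edgeR adjusted p = 0.000614) and 2.17 ± 0.26 higher than in the YTHDF3 RIP (adjusted p = 0.000282). Dync2h1 differed in the same comparisons, by 1.07 and 1.21. With the trend with exonic length removed, these were 0.22 and 0.59, neither called, and with that of transcript length -0.10 and 0.24. Dync1h1 over YTHDF2 was then below a fold of 2 as well, at 0.91 and 0.55, while over YTHDF3 it was still called, at 1.58 and 1.19. Kif5c, Kif2a, Kif16b, Kif3b and Dctn1 were also higher in the YTHDF1 than in the YTHDF2 RIP, by 1.23, 1.18, 1.17, 1.04 and 1.06, and none of the 5 was called with either length trend removed. Kif3b was not called in the paired fit either. Kif1c, which moves vesicles and integrins, was lower, at a log2 fold change of -1.31, a call lost on leaving out any library of the pair but YTHDF1 RIP replicate 2 (-1.38 to -1.254). Kif5c was not called without YTHDF2 RIP replicate 2 (1.12). Below a fold of 2 were Dync2h1 over YTHDF2 without YTHDF1 RIP replicate 3 (0.91) or YTHDF2 RIP replicate 2 (0.99), and Dctn1 without YTHDF1 RIP replicate 2 (0.97).

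Dynll2 set the YTHDF2 RIP apart from both others. It was at -1.29 in the YTHDF1 over the YTHDF2 RIP (edgeR adjusted p = 0.00128) and at 1.84 in the YTHDF2 over the YTHDF3 RIP (adjusted p = 0.00197). The ratio of Dynll2 to Dynll1 counts within a library, which does not depend on scaling between libraries, was 0.941, 0.942 and 0.823 for Input and 3.91, 3.23 and 2.68 for YTHDF2. For YTHDF1 the ratio was 1.18, 1.54 and 1.71, and for YTHDF3 1.19, 1.72 and 1.73, so every YTHDF2 RIP library was above all others. Dynlt2b was the member lower in the YTHDF1 than in the YTHDF3 RIP (-1.28), a call lost without YTHDF1 RIP replicate 3 or YTHDF3 RIP replicate 1 or 2 (-1.27 to -1.10). The 3 differences between the YTHDF1 and YTHDF3 RIPs were no longer called by edgeR in the paired fit (Dync1h1 at 1.95), and no other member was. With the block added to the fit of 4 groups the count was still 3, with 2 groups alone and no block it was 5, and DESeq2 called 5.

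The contrast between heavy and light chains was large for dynein and small for kinesin-1. The median log2 fold change of the 5 heavy chain genes minus that of the 14 light chain genes was 3.97 for YTHDF1, 2.18 for YTHDF2 and 2.76 for YTHDF3. Without the near-identical copies among the light chains it was 3.304, 1.31 and 2.15. Taken library by library against mean Input, the difference ran from 3.01 to 4.41, 1.62 to 2.95 and 2.44 to 3.12. For dynein alone it was 5.56, 3.71 and 3.38. For kinesin-1 alone it was 0.66, -0.15 and 0.78.

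Ratios of counts within each library show the same without any scaling. Dynein heavy chain counts over light chain counts were 1.26, 1.51 and 1.07 in the Input libraries. They rose to 52.0, 34.0 and 89.0 with YTHDF1, 8.5, 6.88 and 14.7 with YTHDF2, and 12.6, 14.2 and 12.2 with YTHDF3, all above Input. Means were 1.28 ± 0.22 (SD, n = 3) in Input and 58.3 ± 28.0, 10.04 ± 4.14 and 13 ± 1.07 in the RIPs. The light chain counts hold reads assigned to several of Dynlt1a, Dynlt1b, Dynlt1c and Dynlt1f at once. Without these 4 genes the means were 2.175 ± 0.18 in Input and 75.3 ± 34.95, 12.3 ± 5.175 and 22.5 ± 1.77 in the RIPs, and every RIP library was again above Input. Kinesin-1 heavy over light chain counts were 3.21 ± 0.25 in Input and 4.72 ± 1.02 with YTHDF1, 3.08 ± 0.55 with YTHDF2, where they overlapped Input, and 4.20 ± 0.69 with YTHDF3.

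**Figure D4:**
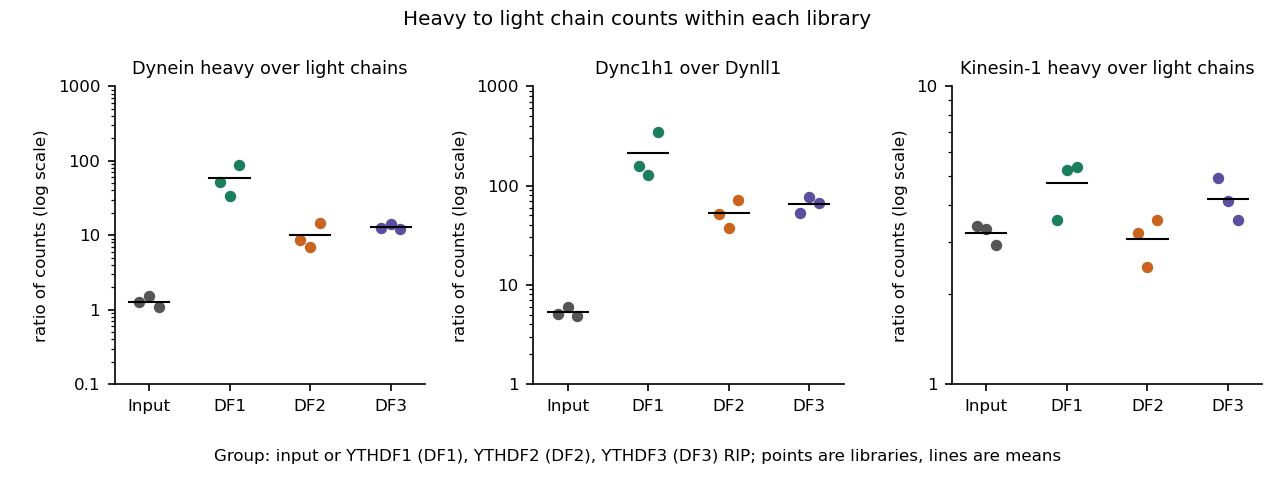
Ratio of heavy to light chain counts (log axis) in each library of Input and of the YTHDF1, YTHDF2 and YTHDF3 RIPs (DF1, DF2, DF3), for dynein, for Dync1h1 over Dynll1 and for kinesin-1, with lines at the means. The dynein ratio lies between 1.07 and 1.51 in Input and between 6.88 and 89.0 in the RIP libraries, whereas the kinesin-1 ratio lies between 2.47 and 5.36 in all libraries.

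Heavy and light chains also differ in mRNA length. The heavy chain transcripts were 6032 to 14342 bases long and the light chain transcripts 684 to 3321, with no overlap. Among the 69 members, the Spearman correlation of log2 fold change with transcript length was 0.73, 0.55 and 0.78 for YTHDF1, YTHDF2 and YTHDF3, and over 13416 protein-coding genes it was 0.61, 0.41 and 0.62. These are correlations across genes of the same libraries, given as a description. The 12 members under 2000 bases had medians of -1.65, -1.16 and -1.21, and all protein-coding genes of that size -0.97, -0.56 and -0.87. The 15 members of 6000 bases and over had medians of 1.15, 0.67 and 1.08, against 1.34, 0.57 and 0.82 for all such genes. The part of length in the motor results was not separated by the design, and the values after its removal are given next.

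**Figure D5:**
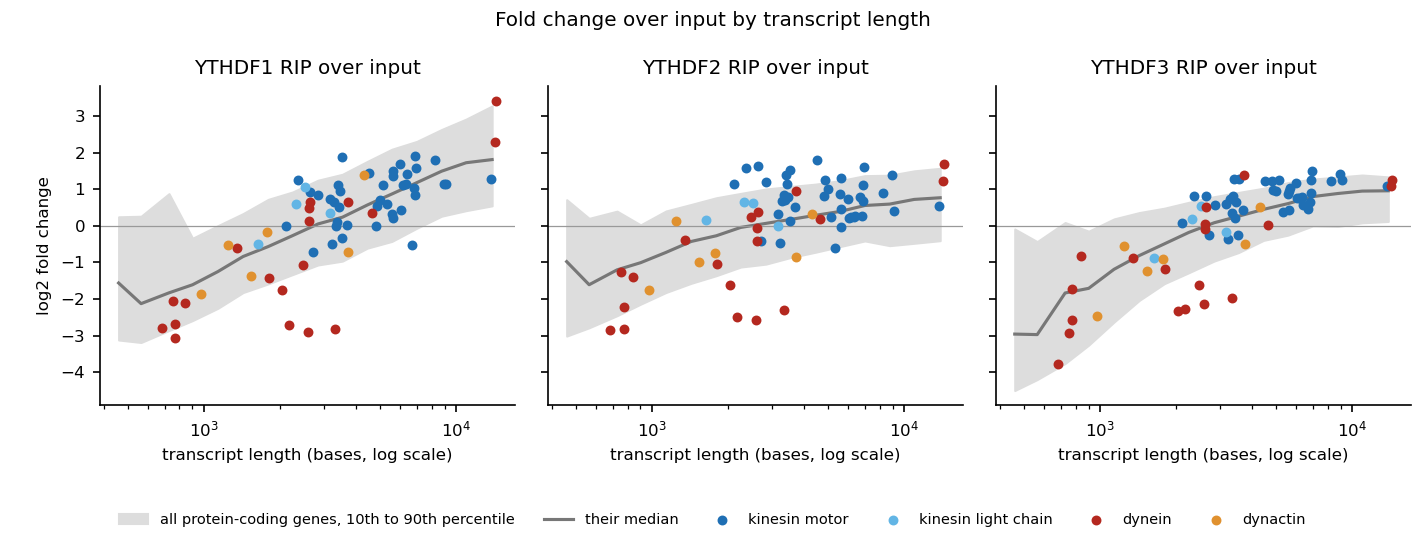
Log2 fold change over Input against the length of the representative transcript (log axis) for the motor genes, coloured by family, with the median and the 10th to 90th percentile of all protein-coding genes in grey. Dync1h1 and Dync2h1, at 14342 and 14264 bases, lie at the right, and Dynll1, Dynlt3, Dynlt1a and Dynlt1c, of 2030 to 3321 bases, lie below the grey band. At its right end the 90th percentiles are 3.27, 1.57 and 1.34 for YTHDF1, YTHDF2 and YTHDF3. Dync2h1 is below these in each RIP, and Dync1h1 in the YTHDF3 RIP alone.

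A loess curve of each library's log2 values against exonic gene length was subtracted to remove the trend. The enriched members then numbered 13, 11 and 9 and the depleted ones 16, 14 and 14. The enriched shares were 18.8%, 15.9% and 13.0% of the members against 22.2%, 13.0% and 15.2% of all genes, so that for YTHDF1 and YTHDF3 they lay below all genes rather than above. The depleted shares were 23.2%, 20.3% and 20.3%, against 24.6%, 16.4% and 16.8%. With representative transcript length in its place, an alternative chosen after seeing the data, they numbered 11, 11 and 7 enriched and 15, 12 and 11 depleted. These were 15.9%, 15.9% and 10.1% enriched, against 19.9%, 12.5% and 13.3% of all genes, and 21.7%, 17.4% and 15.9% depleted, against 22.1%, 15.7% and 15.1%. The dynein light chains depleted were 10, 8 and 9 with exonic length and 9, 7 and 7 with transcript length. The heavy minus light difference became 2.80 for YTHDF1 and 1.89 for YTHDF3 with exonic length, and 1.75, 1.13 and 1.47 for the 3 RIPs with transcript length.

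Named genes took different paths under this removal. With exonic and transcript length, Dync1h1 kept its calls for YTHDF1 (2.10 and 1.56) and YTHDF2 (1.19 and 1.00) but not for YTHDF3 (0.53 and 0.36). Dynll1 stayed depleted in all 3 RIPs, with values from -2.27 to -1.52. Kif5c was still called for YTHDF1 (1.34 and 0.82) but no longer for YTHDF3 (0.55 and 0.28). Kif1a kept only its YTHDF1 call with exonic length (1.00) and none with transcript length (0.51, 0.37 and 0.50). Klc1, a short transcript among the enriched ones, stayed at 0.99 and 1.06 for YTHDF1.

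GGACT occurred in the transcripts of 64 of the 69 members (92.75%), near the 92.09% of the 13416 protein-coding genes tested with a transcript. The transcripts of Dctn3, Dynlt2a2, Dynlt2b, Kif20a and Klc1 held none. In the YTHDF1 RIP, Dctn3, Dynlt2a2 and Dynlt2b were depleted and Kif20a was not called. Klc1 was enriched there, a call lost in the paired fit as described above. Dync2h1 held the most, at 20, and Dync1h1 held 15. The number of GGACT in a transcript had a Spearman correlation with log2 fold change of 0.58, 0.42 and 0.56 across the 69 members for YTHDF1, YTHDF2 and YTHDF3, and longer transcripts hold more of them. Over all protein-coding genes tested it was 0.45, 0.37 and 0.47. Counts of the motif per kilobase had a Spearman correlation with log2 fold change of 0.08, 0.00 and 0.00. The windows printed above come from chosen genes and cannot tell whether the motif goes with enrichment. Dynll2, the depleted one among them, held 5 GGACT, the most of the 10 dynein light chains. It was also the least depleted of these by YTHDF1, at -1.06.

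Expressed per kilobase of transcript, the most abundant members in Input were Klc1, at 196 CPM per kilobase, and Kif5c, at 142. Dync1h1 held 60.5 CPM per kilobase in Input, below Dynll1 at 80.8 and Dynlrb1 at 94.3. In the YTHDF1 RIP the order was reversed, with Dync1h1 at 644 CPM per kilobase, the highest of these levels, and Dynll1 and Dynlrb1 at 24 and 13.5.

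Of 38 listed partner genes of the motors, 36 were tested, and 12, 8 and 11 were enriched and 11, 10 and 9 depleted by YTHDF1, YTHDF2 and YTHDF3 in that order. As shares these were 33.3%, 22.2% and 30.6% enriched, against 27.2%, 15.7% and 16.4% of all genes, and 30.6%, 27.8% and 25% depleted, against 25.8%, 19.0% and 23.0%, near the background for YTHDF1. The paired fit had 5, 6 and 16 of the 36 enriched and 5, 8 and 12 depleted. Of all genes it had 14.0%, 11.7% and 36.3% enriched and 17.7%, 16.4% and 32.2% depleted. With the trend with exonic length removed, 9, 5 and 3 partners were enriched and 13, 12 and 10 depleted. Of all genes 22.2%, 13.0% and 15.2% were then enriched and 24.6%, 16.4% and 16.8% depleted. Of the 6 subunits of the dynactin filament, which is built of actin-related protein and capping protein, 5 (83.3%) were depleted in each RIP and none enriched. Of 8 cargo adaptors of dynein tested, 5, 5 and 4 (62.5%, 62.5% and 50%) were enriched and none depleted. Of 18 kinesin adaptors, 7, 3 and 7 (38.9%, 16.7% and 38.9%) were enriched and 4, 5 and 3 (22.2%, 27.8% and 16.7%) depleted.

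The dynein adaptors Bicd1 and Hook3, which tether dynein and dynactin to vesicles, were the most enriched partners in the YTHDF1 RIP. Bicd1 held 91.5, 72.9 and 61.9 CPM in Input and 360, 1586 and 876 in the YTHDF1 RIP, and Hook3 held 114, 120 and 116 in Input and 388, 2693 and 1127. Replicate 2 was the highest library for both. Their log2 fold changes were 3.64 and 3.59, and they were called in neither other RIP, at -0.57 and 0.13 for Bicd1 and -0.36 and -0.20 for Hook3. Rab11fip3, an adaptor on recycling endosomes, was enriched in all 3 (1.22, 1.37 and 1.26). Hook1 led for YTHDF2 (1.58), where Hook2 was at 1.49.

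The lowest partners were Capza2 (-1.76) and Arl8b (-1.66) for YTHDF1, Arl8b (-1.82) and Capzb (-1.28) for YTHDF2, and Nudc (-1.64) and Capzb (-1.56) for YTHDF3. Capza2 and Capzb encode actin capping protein, Arl8b a GTPase that couples lysosomes to kinesin, and Nudc a chaperone-like regulator of dynein.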

How the data were processed

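Mouse hippocampal neuron RIP-seq libraries were analysed from the authors' gene counts. Per the file headers, the deposited counts came from featureCounts 2.0.1 with the Ensembl annotation of GRCm38, counting fragments on the stated strand. Reads with several alignments or overlapping several genes were counted for each gene, which inflates near-identical copies. Before that the authors took unique molecular identifiers with UMI-tools 1.1.1, trimmed with cutadapt 3.4, aligned with STAR 2.7.7a and removed duplicates. The authors' YTHDF1 table, made with DESeq2, supplied symbols and biotypes for the choice of members. Its deposited signal column is a mean of size-factor-scaled counts, and its fold changes, test statistics and p-values, like those of the YTHDF2 and YTHDF3 tables, were not used.

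A gene was tested if its normalized count averaged 10 or more across the 12 libraries (17126 of 55573). TMM factors were then computed, and an edgeR 4.0.16 quasi-likelihood model with 4 groups was fitted in R 4.3.3. All adjusted p-values are Benjamini-Hochberg values over all genes tested. The SE of a log2 fold change was taken as its absolute value over the root of F. Differences between RIPs were called at a fold of at least 2. Normalized CPM are counts relative to the TMM-scaled library size. The calling step was tested on simulated counts of all 17126 genes. Transcript lengths and sequences are those of 1 GENCODE basic transcript per gene, the principal isoform and then the longest coding sequence, and GGACT was searched on the sense strand. The length trend was a loess curve of span 0.3 per library.

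By the study's methods, libraries of the same number share a lysate and its Input. Deviations from the group means correlated at 0.83, 0.53 and 0.80 between YTHDF3 RIP and Input replicates 1, 2 and 3. The same correlations were 0.09, -0.27 and -0.32 for YTHDF1 and 0.18, -0.32 and -0.31 for YTHDF2. The paired fit took the RIP and Input libraries alone with the replicate number as a block.

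Named genes were a fixed list of chains, plus, in each comparison with Input, the 3 highest and 3 lowest called members and the 2 highest and 2 lowest called partners, and 2 members in each direction between RIPs. Other genes named were chosen after their values were seen. The members and lists were chosen with earlier results of these data known. Besides the alternatives named in the report, DESeq2 1.42.0 and its size factors, no filter, a minimum mean of 50, 2 groups alone and leaving out each library were tried.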

Additional observations from a re-analysis of the deposited data

How the results depend on the processing

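The enriched members for YTHDF1, 25 in all, numbered 16 with library size alone and with 2 groups alone, 13 with the exonic length trend removed and with 2 groups alone and the replicate block, 16 with trend removal and the replicate block, and 11 with the transcript length trend removed (chosen after seeing the data). Those for YTHDF3, 20 in all, numbered 9, 10 and 7 in these 3 length settings and 40 with 2 groups and the block. Leaving out 1 library gave 20 to 24 and 14 to 19 of them, with 14 to 17 and 14 to 15 depleted, and for YTHDF2 9 to 12 enriched and 12 to 14 depleted.

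Between the YTHDF1 and YTHDF2 RIPs, 9 members differed, and 2, 3 and 2 did in the length settings (6 to 9 without 1 library). Between the YTHDF1 and YTHDF3 RIPs, 3 differed. The count was 13 with library size alone, 6 with TMM over protein-coding genes, 7 without a filter, 10 with a minimum mean of 50, 5 with the trend removed and the block, 5 with 2 groups alone, 0 with 2 groups and the block, and 5 with DESeq2. It was 2 without YTHDF3 RIP replicate 2 and 6 without YTHDF1 RIP replicate 2, the extremes of leaving out 1 library. Between the YTHDF2 and YTHDF3 RIPs, 1 differed, and 3 did with DESeq2 size factors, 4 with library size alone, 3 with TMM over protein-coding genes, 4 without a filter, 9 with a minimum mean of 50, 2 with the transcript length trend removed, 2 with 2 groups alone and 3 with DESeq2. It stayed between 1 without YTHDF2 RIP replicate 1 and 2 without YTHDF3 RIP replicate 2.

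The heavy minus light chain difference for YTHDF1, 3.97, became 2.80 with the exonic trend removed, with or without the block, and 1.75 with the transcript trend removed (3.52 to 4.46 without 1 library). For YTHDF2, 2.18 became 2.89 with a minimum mean of 50, 1.13 with the transcript trend removed and 1.31 without near-identical copies, also chosen after seeing the data (1.94 to 2.55 without 1 library). For YTHDF3, 2.76 became 1.89 with the exonic trend removed, 1.88 with the block as well, 1.47 with the transcript trend and 2.15 without the copies (2.49 to 2.97 without 1 library).

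Values that changed sign were Kif21b for YTHDF1, at -0.26, and Dync2h1 in the YTHDF1 over the YTHDF2 RIP, at -0.10, with the transcript trend removed, and Dync1i2 for YTHDF1, at -0.0050 with the exonic trend removed and -0.048 with the block as well. In the YTHDF1 and YTHDF2 comparisons the replicate block pairs libraries whose deviations did not go together for numbers 2 and 3. Among the genes named by rule, the block added to the fit of 4 groups changed 5 calls. All were lost, namely Kif5a and Dync1i2 for YTHDF1 and Kif5b, Kif5c and Dctn4 for YTHDF3. Calls of other members changed too, among them Kif9 for YTHDF1 and Kif2a for YTHDF2, lost, and Kifc1 for YTHDF2, made. Apart from the calls given in the report, the block with 2 groups changed none of the fixed list of chains. The cause of the other changes was not tested. Depth limits the rarest members most, Klc3 averaging 10.5 counts over the libraries.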
